A study of Rattus norvegicus with 24 samples.

Results

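Repeated infusion of lipopolysaccharide (LPS) in rats with a portocaval shunt was examined by setting the 5 PCA+LPS arrays against the 5 PCA arrays, 10 of the 24 arrays in the series. All probe sets of the annotated expression table that carried a single gene symbol were used, with the probe set of highest mean standing for each gene, which gave 18137 genes from the 19338 probe sets with 1 symbol. No gene passed the threshold of a limma adjusted p under 0.05. The genes with the smallest p were C3, the central complement protein, which was higher by 1.72 on the log2 scale with LPS, and Bach2, a transcriptional repressor of lymphocytes, with a difference of -0.68.

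The study modelled hepatic encephalopathy, the brain disorder that accompanies liver failure or shunting of blood past the liver, and RNA of the cerebellum was measured on Affymetrix arrays. The rats were of the Sprague-Dawley strain. Portocaval anastomosis (PCA) joins the portal vein to the vena cava. Both groups compared here carried the shunt, and the tissue was taken 6 months after it was made. The PCA+LPS rats also received 10 infusions of LPS at 5 mg/kg, given every 2 weeks. A second pair of groups carried the shunt and received ammonium acetate (NH3) at 20 µl/min for 3 h on the same schedule, either alone (PCA+NH3, n = 5) or with LPS at 5 mg/kg (PCA+NH3+LPS, n = 4), and 5 Sham arrays came from rats with control surgery. The labels do not say whether the numbered samples of a group were separate animals, so each p measures the spread between these samples. They name no batch or date, do not mention vehicle infusions of PCA rats, and do not give the time between the last infusion and the sampling.

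LPS is a component of the outer membrane of Gram-negative bacteria. LBP and CD14 pass it to the receptor complex of TLR4 and MD-2 (Ly96) on myeloid and endothelial cells, and the signal runs through NF-kB to cytokines, chemokines, adhesion molecules and complement. In brain, microglia, perivascular macrophages and the vessel wall are the main cells that answer to LPS in the blood, and repeated exposure is known to blunt the cytokine response of macrophages.

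The values were log2 expression, and the 10 arrays correlated with each other at 0.987 to 0.996 over all genes. Markers of cerebellum were high on every one of them: Neurod1, a transcription factor of granule cells, lay between 11.5 and 11.8, and Pcp2, the Purkinje cell protein 2 gene, between 10.4 and 10.7. The forebrain gene Emx1 lay between 3.8 and 4.4, whereas Neurod6, which was listed with them as a forebrain marker, lay between 8.4 and 9.4. Among the PCA arrays, array 3 stood apart, with the highest mean of the list of microglia genes (0.33 above the PCA group mean, against -0.12 to -0.07 in the other 4) and of brainstem neurons (0.51, against -0.17 to -0.08).

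Across all genes, 0 of 18137 passed an adjusted p under 0.05 in either direction (0% higher and 0% lower), and the smallest adjusted p was 0.154. At an unadjusted limma p under 0.05, 363 genes were higher (2.00%) and 364 were lower (2.01%) with LPS. Centring each array on its median changed that split to 153 higher and 751 lower. The array medians, deposited in steps of 0.1, were all 5.6 or 5.7. Cyclic loess, another rescaling, gave 401 higher and 342 lower. Every PCA+LPS array lay above every PCA array for 22 genes (0.121%) and below every PCA array for 23 genes (0.127%). Over all genes the median difference was 0.00, 45.8% of the differences were above 0 and 45.5% below 0, and the median standard error (SE) was 0.10. These shares, and the 2.00% higher and 2.01% lower, are the background for each list count of PCA+LPS minus PCA below. Only 6 genes differed by at least 1 on the log2 scale, which is a factor of 2 in level. Higher were Cxcl13, C3, Lcn2, Cntn6 at 1.08 (SE 0.46) and Chrna2 at 1.04 (SE 0.36), and lower was Tlx3 at -1.28 (SE 0.54). The last 3, a neural adhesion molecule, a nicotinic receptor subunit and a homeobox factor of neurons, were named after their values were seen, and their adjusted p was 0.988.

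**Figure D1:**
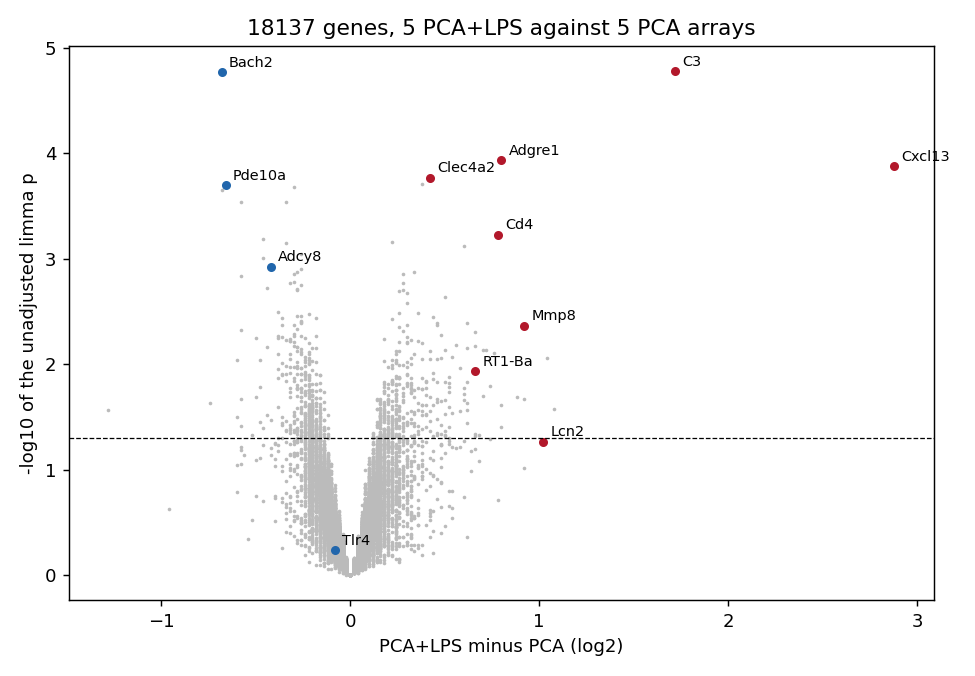
Each point is 1 of 18137 genes, with the log2 difference between the 5 PCA+LPS and the 5 PCA arrays on the horizontal axis and -log10 of the unadjusted limma p on the vertical axis. The dashed line marks an unadjusted p of 0.05. C3 and Bach2 have the smallest p, Cxcl13 has the largest difference at 2.88, and Tlr4 lies near 0.

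Complement was the list in which every measured gene lay above 0. C3, whose cleavage drives opsonisation and the terminal pathway, was at 7.8, 7.3, 8.6, 7.2 and 7.5 in PCA arrays 1 to 5 and at 9.9, 9.4, 9.0, 9.0 and 9.7 in PCA+LPS arrays 1 to 5. All 5 PCA+LPS arrays lay above all 5 PCA arrays, and PCA array 3 was the one that came closest. The means were 7.68 ± 0.56 and 9.40 ± 0.41 (SD, n = 5 each), a difference of 1.72 (SE 0.32, 95% interval 1.06 to 2.38, 3.29-fold, limma adjusted p = 0.154). C3 did not pass among all genes. Without PCA array 3 it did, at 1.95 (limma adjusted p = 0.0234). Without PCA array 1 the smallest limma adjusted p of any gene was 0.78. Over all 35 alternatives the limma adjusted p of C3 ran from 0.00952 to 0.995.

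Of 15 measured complement genes, 15 were above 0 with a median of 0.28, against a median of 0.00 and 45.8% above 0 over all genes. Of these, 4 had an unadjusted p under 0.05, which 2.00% of all genes reached in that direction. C1s, the serine protease of the C1 complex, was at 4.6, 4.7, 4.8, 4.9 and 5.3 in PCA and at 5.3, 6.0, 4.9, 4.9 and 5.8 with LPS. C1qa, a chain of the recognition molecule C1q made by microglia, was at 6.7, 6.6, 7.0, 6.6 and 6.3 in PCA and at 7.4, 7.7, 6.4, 6.9 and 7.4 with LPS. Its sister chain C1qb was at 7.3, 7.3, 7.9, 7.3 and 7.3 in PCA and at 7.8, 8.2, 7.2, 7.7 and 8.2 with LPS. Unlike C3, these 3 genes overlapped between the groups: PCA+LPS array 3 lay at the PCA level for all of them, and arrays 2 and 5 were high. The differences were 0.52 (SE 0.20) for C1s, 0.52 (SE 0.22) for C1qa and 0.40 (SE 0.16) for C1qb. The mean of the complement list was above the PCA group mean by 0.32, 0.62, -0.02, 0.30 and 0.61 in PCA+LPS arrays 1 to 5, while the PCA arrays ranged from -0.16 to 0.28. In an alternative chosen after seeing the data, without PCA+LPS arrays 2 and 5, 13 of the 15 stayed above 0 and the median was 0.10, with 1 gene at an unadjusted p under 0.05 and C3 at 1.62. Without PCA array 3 the median was 0.34 and 7 of the 15 had an unadjusted p under 0.05. Over all 18137 genes, 462 were higher at that p without PCA array 3, and 285 without PCA+LPS arrays 2 and 5.

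The proximal promoters of the genes that come first by p in 12 immune lists were read from RefSeq (GRCr8). A window ran from 250 bases before to 50 bases after the start of the gene. All 12 genes were higher with LPS at an unadjusted limma p under 0.05, but they were picked by p on these same arrays. Their direction and p are therefore no result of their own. The interferon response, MHC class I, NF-kB and B cell lists had 0 members higher at that p and gave no gene to this set. The shares of motifs below describe this picked set and were not tested. Of 12 such genes, 10 had a window. The letters TTGCNNAA of C/EBP factors, which act in acute phase and myeloid genes, were found on either strand in 4 of the 10, against 10.6% of all 33469 windows of that length. These 4 windows are shown, 5′ to 3′ on the strand of the gene, because each holds a C/EBP match. They belong to the complement, chemokine, macrophage and neutrophil genes that lead their lists. Capitals mark every match to the 5 motifs searched on both strands.
C3 (chr9:2201290-2201589, minus strand): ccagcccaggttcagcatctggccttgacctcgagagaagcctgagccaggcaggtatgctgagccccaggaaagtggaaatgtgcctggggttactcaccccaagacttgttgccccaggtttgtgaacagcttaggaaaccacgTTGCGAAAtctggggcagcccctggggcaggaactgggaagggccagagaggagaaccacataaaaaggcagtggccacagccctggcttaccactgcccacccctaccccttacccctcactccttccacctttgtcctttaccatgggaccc
Cxcl13 (chr14:13917871-13918170, minus strand): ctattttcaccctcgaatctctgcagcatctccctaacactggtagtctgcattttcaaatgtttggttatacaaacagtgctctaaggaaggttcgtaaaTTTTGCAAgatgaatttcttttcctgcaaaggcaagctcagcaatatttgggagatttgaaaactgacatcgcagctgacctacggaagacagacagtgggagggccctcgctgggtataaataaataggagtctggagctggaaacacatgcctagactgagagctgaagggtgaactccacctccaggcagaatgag
Adgre1 (chr9:2329190-2329489, plus strand): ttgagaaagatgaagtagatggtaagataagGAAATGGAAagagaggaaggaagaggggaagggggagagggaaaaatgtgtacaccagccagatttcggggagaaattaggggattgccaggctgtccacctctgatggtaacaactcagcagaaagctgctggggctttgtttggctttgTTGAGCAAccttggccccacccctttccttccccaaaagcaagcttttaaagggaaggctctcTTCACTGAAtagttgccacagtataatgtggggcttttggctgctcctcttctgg
Mmp8 (chr8:13008640-13008939, plus strand): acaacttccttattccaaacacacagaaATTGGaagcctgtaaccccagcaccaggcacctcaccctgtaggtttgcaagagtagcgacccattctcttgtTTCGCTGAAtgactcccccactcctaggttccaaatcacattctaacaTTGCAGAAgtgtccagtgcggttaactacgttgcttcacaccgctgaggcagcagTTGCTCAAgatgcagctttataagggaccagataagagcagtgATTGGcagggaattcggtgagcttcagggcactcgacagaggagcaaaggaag
The capitals in C3 and Cxcl13 are 1 C/EBP match each, which begin 104 and 149 bases before the start. Adgre1 holds the interferon-stimulated letters GAAANNGAA at 219 bases before the start, then a C/EBP match at 68 and the STAT letters TTCNNNGAA at 5. Mmp8 holds CCAAT boxes at 222 and 3, a STAT match at 149 and C/EBP matches at 101 and 46. The NF-kB letters GGNNTTTCC were in 1 of the 10 windows, that of Lrg1, against 6.05% of all windows. The interferon-stimulated letters were in 2 of the 10 (9.71% of all windows), the STAT letters in 2 (8.87%) and CCAAT in 3 (37.5%), and 3 windows held none. No matches overlapped in the 4 windows shown, and a match describes letters, not a bound site.

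Cxcl13, the chemokine that draws B cells through the receptor CXCR5, had the largest difference of all genes. It was at 5.0, 5.0, 4.8, 4.5 and 5.6 in PCA arrays 1 to 5, and at 6.6, 9.8, 6.7, 6.3 and 9.9 in PCA+LPS arrays 1 to 5. The groups did not overlap, and within the LPS group arrays 2 and 5 stood far above the other 3. The difference was 2.88 (SE 0.63, 95% interval 1.58 to 4.18, limma adjusted p = 0.454), and 1.55 without arrays 2 and 5. It was an exception in its list: of 15 chemokines measured, 5 were above 0, the median was -0.04, and no other reached an unadjusted p under 0.05. Cxcl10 and Cxcl9, chemokines induced by interferon, were both at -0.20 (SE 0.16 and 0.11). Ccl2, which recruits monocytes, varied widely within groups, from 6.3 to 9.6 in PCA and from 7.5 to 10.0 with LPS, and its difference of 0.50 (SE 0.52) was 0.98 without PCA array 4 and 0.045 without PCA+LPS array 4.
Genes of B cells, which CXCL13 attracts, lay near the background. Of 10 measured genes of B lymphocytes and plasma cells, 3 were above 0, with a median of -0.06, and Ms4a1 and Cd79a lay between 3.1 and 5.0 on all 10 arrays.

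**Figure D2:**
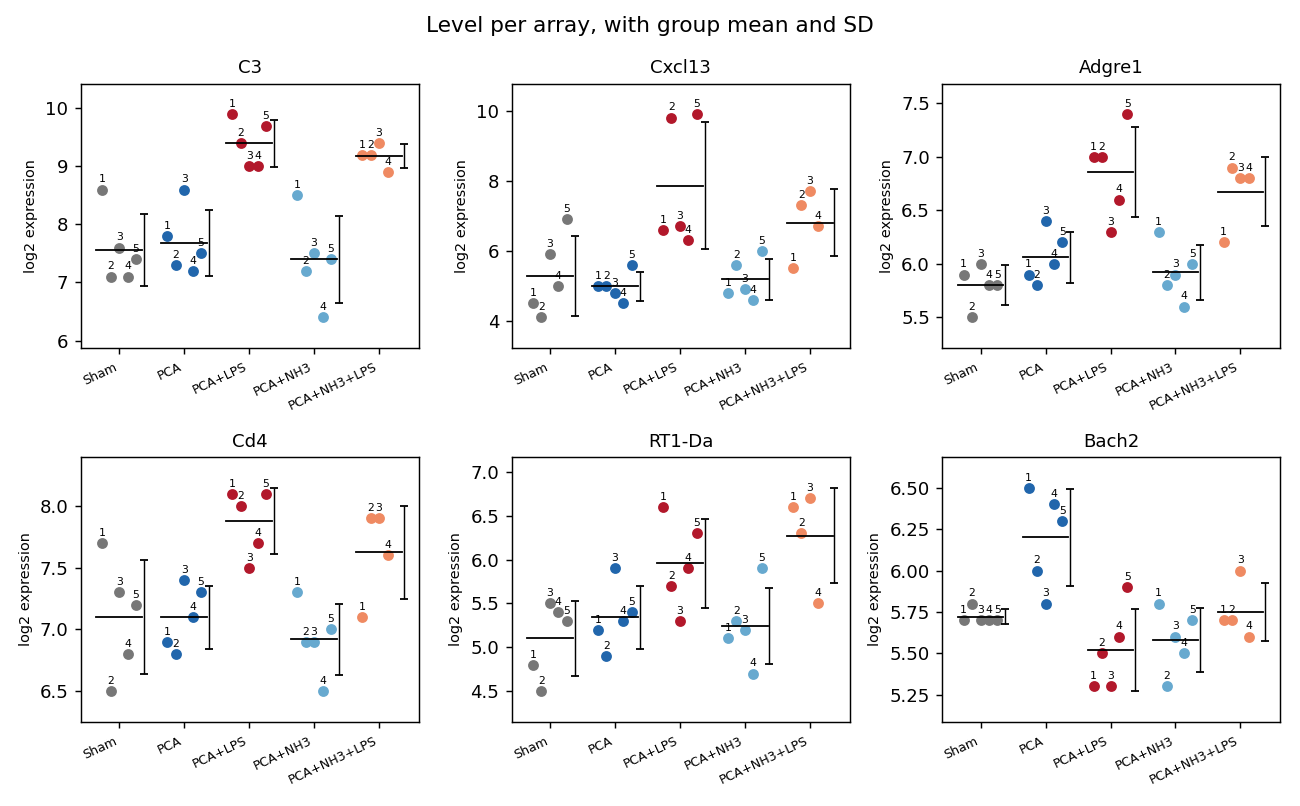
Log2 expression of C3, Cxcl13, Adgre1, Cd4, RT1-Da and Bach2 on the vertical axis, 1 point per array with its number, by group, with a line at the group mean and a bar of 1 SD (n = 5, and n = 4 for PCA+NH3+LPS). C3 lies at 9.0 to 9.9 in PCA+LPS and at 7.2 to 8.6 in PCA, and the PCA+LPS arrays lie at 6.3 to 6.7 or at 9.8 to 9.9 for Cxcl13. Bach2 lies at 5.3 to 5.9 in PCA+LPS and at 5.8 to 6.5 in PCA.

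Adgre1 and Cd4 were also among the genes with the smallest p. Adgre1, an adhesion G protein-coupled receptor that marks macrophages, was at 5.9, 5.8, 6.4, 6.0 and 6.2 in PCA and at 7.0, 7.0, 6.3, 6.6 and 7.4 with LPS. Only PCA+LPS array 3 fell within the PCA range, and the difference was 0.80 (SE 0.17, limma adjusted p = 0.454). Cd4, the helper T cell coreceptor that rat macrophages also carry, was at 6.9, 6.8, 7.4, 7.1 and 7.3 in PCA and at 8.1, 8.0, 7.5, 7.7 and 8.1 with LPS, without overlap. Its difference was 0.78 (SE 0.20, limma adjusted p = 0.859), but the other, dimmer Cd4 probe set was at -0.06. Clec4a2, a C-type lectin of myeloid cells, was higher by 0.42 (SE 0.09) at a level near the bottom of the scale (2.82 in PCA). Plek, the pleckstrin gene of platelets and leukocytes, was higher by 0.46 (SE 0.14), with 4.9 to 5.2 in PCA and 5.4 to 5.8 with LPS. Lyn, a tyrosine kinase of leukocytes, was higher by 0.30 (SE 0.10). Adgre1 was the 1 of 10 measured genes of the perivascular macrophage list at an unadjusted p under 0.05. That list had 7 above 0 and a median of 0.10, and without PCA+LPS arrays 2 and 5 it had 2 above 0 and a median of -0.09.

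T cell genes did not accompany Cd4. Of 15 measured genes of T and NK lymphocytes, 7 were above 0 with a median of 0.00, Cd4 was the one at an unadjusted p under 0.05, and Cd3d and Cd3e, chains of the T cell receptor complex, lay between 3.8 and 4.9 on all 10 arrays.

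For genes that define resident microglia the values depended on PCA array 3. Cx3cr1, the fractalkine receptor, was at 8.54 ± 0.48 in PCA and 8.54 ± 0.23 with LPS (SD, n = 5 each), although PCA array 3 at 9.4 lay apart from the other PCA arrays at 8.3 to 8.4, and without it the difference was 0.215. The purinergic receptor gene P2ry12 was at -0.10 (SE 0.19) and Aif1, which encodes IBA1, at 0.04 (SE 0.15), or 0.145 without PCA array 3. Itgam, the integrin CD11b, was at 0.24 (SE 0.23), and at 0.40 without PCA+LPS array 3. In the microglia list 13 of 20 genes were above 0, against 45.8% of all genes, and the median was 0.06. Ptprc, the leukocyte common antigen CD45 that blood leukocytes carry in larger amounts, was the one at an unadjusted p under 0.05. Ptprc was at 5.0 to 5.4 in PCA and at 5.3, 6.5, 5.0, 5.3 and 6.5 with LPS, so arrays 2 and 5 alone lay clear of PCA. Its difference was 0.50 (SE 0.23), and -0.02 without those 2 arrays, and its other, dimmer probe set was at -0.10. Without PCA array 3 the microglia list had 16 of 20 above 0 and a median of 0.15. Of its genes 3 were then higher at an unadjusted p under 0.05, against 462 of all 18137 genes. Tyrobp, the myeloid adaptor DAP12, was at 0.38 (SE 0.21).
Genes of activated microglia were above 0 in 14 of 18, against 45.8% of all genes, with a median of 0.07. Of the 18, 3 were higher at an unadjusted p under 0.05, against 2.00% of all genes. These 3 were Cybb, the phagocyte oxidase subunit, at 0.66 (SE 0.31), Lgals3, galectin 3, at 0.48 (SE 0.23), and Clec7a, the receptor dectin-1, at 0.46 (SE 0.22). Without PCA+LPS arrays 2 and 5 they were at 0.06, 0.15 and 0.05. Without PCA array 3 the list's median was 0.15 and 1 member was higher at an unadjusted p under 0.05, against 462 of all 18137 genes. Bulk RNA cannot tell more cells of a type from more RNA per cell, here or in the lists that follow.

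Antigen presentation by MHC class II divided the PCA+LPS arrays in another way. RT1-Ba, an alpha chain of class II, was at 4.9, 5.0, 5.4, 5.2 and 5.4 in PCA and at 6.2, 5.3, 5.3, 6.2 and 6.2 with LPS. Cd74, the invariant chain that guides class II molecules, was at 8.6, 8.2, 9.6, 8.3 and 9.0 in PCA and at 10.0, 8.7, 8.8, 9.6 and 10.0 with LPS. RT1-Da, another alpha chain, was at 5.2, 4.9, 5.9, 5.3 and 5.4 in PCA and at 6.6, 5.7, 5.3, 5.9 and 6.3 with LPS. Arrays 1, 4 and 5 were the high ones for RT1-Ba and Cd74, array 2 was not, and the groups overlapped for all 3 genes. The differences were 0.66 (SE 0.24), 0.68 (SE 0.33) and 0.62 (SE 0.26). They were the 3 of 10 measured class II genes at an unadjusted p under 0.05, against 2.00% of all genes, and the list had 7 above 0 and a median of 0.12. Without PCA+LPS arrays 2 and 5 RT1-Ba was at 0.72, Cd74 at 0.73 and RT1-Da at 0.59. Of the class II genes 1 was then higher at an unadjusted p under 0.05, against 285 of all 18137 genes.
MHC class I genes, which present peptides to CD8 T cells, were above 0 in 11 of 14 with a median of 0.09, and none had an unadjusted p under 0.05. RT1-CE16 came nearest, at 0.34 (SE 0.17). Members of the class I family are near-identical copies, and how their probe sets share signal was not tested. The interferon response list had a median of 0.05 over 26 genes. Both members at an unadjusted p under 0.05 were lower: Mx2, an antiviral GTPase, at 4.6 to 5.1 with LPS and 5.2 to 5.4 in PCA, without overlap (-0.38, SE 0.14), and Gbp1, a guanylate-binding GTPase, at -0.22 (SE 0.10).

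Neutrophil and monocyte genes were highest on PCA+LPS arrays 2 and 5. Array 4 lay slightly above PCA for Mmp8, Csf3r and Plac8, as did array 3 for Mmp8. Mmp8, the collagenase stored in neutrophil granules, was at 3.5, 3.4, 3.6, 3.4 and 3.1 in PCA and at 3.2, 5.7, 3.7, 3.8 and 5.2 with LPS. Csf3r, the receptor for granulocyte colony-stimulating factor, was at 5.5, 5.4, 5.9, 5.6 and 5.7 in PCA and at 5.7, 7.3, 5.5, 6.0 and 7.1 with LPS. Plac8, a gene of blood myeloid cells, was at 4.2, 4.5, 4.4, 4.3 and 4.5 in PCA and at 4.3, 6.0, 4.2, 4.6 and 5.8 with LPS. Arrays 2 and 5 lay above every PCA array for all 3 genes. The group differences were 0.92 (SE 0.29) for Mmp8, 0.70 (SE 0.24) for Csf3r and 0.60 (SE 0.24) for Plac8, and their adjusted p was 0.988.
Of 17 measured genes of neutrophils and monocytes, 15 were above 0, the median was 0.30, and 7 had an unadjusted p under 0.05, against 2.00% of all genes. The list mean lay above the PCA group mean by -0.11, 1.24, -0.02, 0.13 and 0.84 in PCA+LPS arrays 1 to 5, and between -0.09 and 0.09 in the PCA arrays. Without arrays 2 and 5 the median was 0.02 and 0 of 17 were higher at an unadjusted p under 0.05, against 285 of all 18137 genes. Granule genes differed among themselves: S100a9, a calcium-binding protein of neutrophils, was at 7.0 and 6.0 on arrays 2 and 5 and at 4.1 to 4.5 on the other 3, whereas Mpo, the myeloperoxidase of early granulocytes, lay between 4.6 and 4.9 on all 10 arrays.
Blood in the tissue was gauged by red cells and platelets. The mean of 7 genes of red cells was 0.25, 0.42, -0.01, 0.09 and 0.36 above the PCA group mean in PCA+LPS arrays 1 to 5, against -0.15 to 0.26 in PCA, with 6 of the 7 above 0 in the group comparison. For 7 genes of platelets it was -0.11, 0.21, -0.06, -0.09 and 0.06, against -0.09 to 0.04 in PCA. The part of blood content in the neutrophil values was not tested.

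Most acute phase and adhesion genes named here were highest on the same 2 arrays, with Cp as an exception. Lcn2, lipocalin 2, an iron-sequestering acute phase protein, was at 5.4, 6.2, 7.2, 6.9 and 5.8 in PCA and at 6.6, 9.5, 5.7, 6.1 and 8.7 with LPS. Lrg1, a leucine-rich glycoprotein of the acute phase, was at 5.3, 5.7, 6.0, 5.5 and 5.7 in PCA and at 5.5, 6.9, 5.4, 6.5 and 7.0 with LPS. The groups overlapped for both. Lcn2 was at 1.02 (SE 0.50) and Lrg1 at 0.62 (SE 0.26), and without arrays 2 and 5 at -0.17 and 0.16. Timp1, the metalloproteinase inhibitor, was at 0.60 (SE 0.30), and Osmr, the oncostatin M receptor, at 0.36 (SE 0.15). The copper carrier Cp was at 7.0, 8.1, 7.3, 8.4 and 8.6 with LPS, so array 4 lay above array 2, and its difference of 0.74 (SE 0.36) was 0.43 without arrays 2 and 5 and 0.48 without PCA array 1. The acute phase and JAK-STAT3 list had 10 of 16 above 0, a median of 0.07 and 2 at an unadjusted p under 0.05, Lrg1 and Osmr. Its median without those 2 arrays was -0.02.
In the list of endothelial activation and adhesion, 14 of 17 genes were above 0, against 45.8% of all genes, with a median of 0.26. The 1 at an unadjusted p under 0.05, against 2.00% of all genes, was Itgal, the leukocyte integrin that binds ICAM-1, at 0.46 (SE 0.19). Icam1 was at 6.4 and 6.2 on arrays 2 and 5 and at 5.5 to 5.9 on the other 3, and Vcam1, the ligand of the integrin VLA-4, at 7.6 and 7.7 against 6.6 to 7.0. Ptges, which makes prostaglandin E2 in the vessel wall, was at 7.1 on both and at 5.7 to 6.2 on the others. Their differences were 0.26 (SE 0.17), 0.28 (SE 0.18) and 0.52 (SE 0.26). The mean of this list was 0.69 and 0.61 above the PCA group mean on arrays 2 and 5, against -0.14 to 0.05 on the other PCA+LPS arrays and -0.17 to 0.19 in PCA. Without both, the list's median was 0.01.

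**Figure D3:**
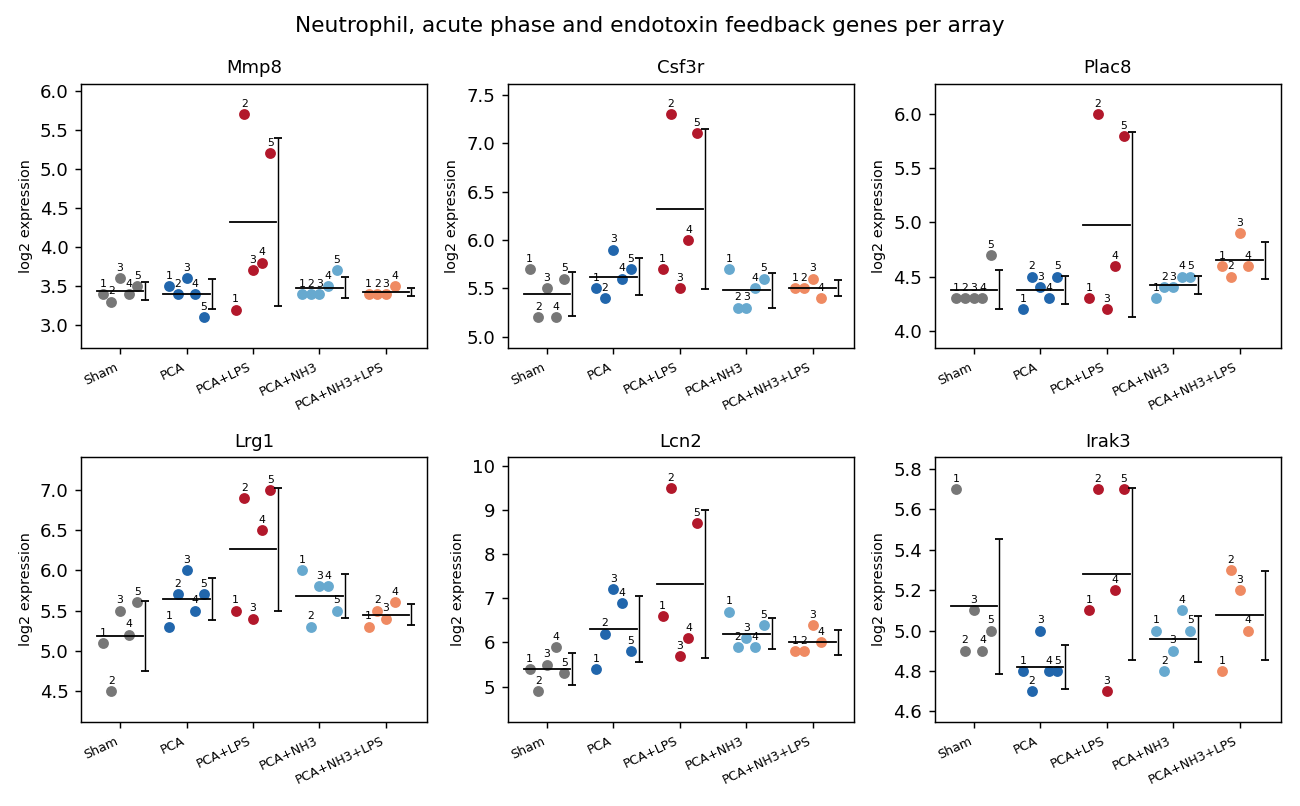
Log2 expression of Mmp8, Csf3r, Plac8, Lrg1, Lcn2 and Irak3 on the vertical axis, 1 point per numbered array in each group, with the group mean and a bar of 1 SD. PCA+LPS arrays 2 and 5 carry the highest values of each gene within that group, and the 4 PCA+NH3+LPS arrays lie below both.

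The receptor for LPS itself did not differ beyond the spread. Tlr4 was at 5.98 ± 0.13 in PCA and 5.90 ± 0.21 with LPS (SD, n = 5 each), Cd14 at 5.98 ± 0.22 and 5.98 ± 0.28, and Ly96, which encodes MD-2, was at 0.16 (SE 0.10). In the list of LPS receptor and TLR signalling, 7 of 14 genes were above 0, against 45.8% of all genes, with a median of 0.05. The 2 higher at an unadjusted p under 0.05, against 2.00% of all genes, were Irak3 and Aoah. Irak3, a kinase-dead brake on TLR signalling, was at 4.8, 4.7, 5.0, 4.8 and 4.8 in PCA and at 5.1, 5.7, 4.7, 5.2 and 5.7 with LPS (0.46, SE 0.16). Aoah, the lipase that detoxifies LPS, was at 3.6 to 3.9 in PCA and at 3.8, 4.6, 3.7, 3.8 and 4.7 with LPS (0.40, SE 0.15). Both were highest on arrays 2 and 5. Without these arrays they were at 0.18 and 0.05, and the median of the list was -0.007. Lbp, the LPS carrier of serum, was highest on the same arrays at 6.1 and 6.6, and its difference was 0.46 (SE 0.29).

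The cytokine transcripts Tnf, Il6 and Il1b, which LPS is known to induce, did not reach an unadjusted p under 0.05. Tnf was at 0.16 (SE 0.13), Il6 at 0.12 (SE 0.13) and Il1b at 0.16 (SE 0.10), with values between 3.0 and 5.0 on all 10 arrays. Of 20 cytokine and receptor genes, 18 were above 0 with a median of 0.16, and 5 had an unadjusted p under 0.05, against 2.00% of all genes. They were the antagonist Il1rn and the receptor genes Il13ra1, Il6st, Osmr and Tnfrsf1a, the last of these at 0.24. Il13ra1, a receptor chain for interleukin 13, was at 6.9, 7.2, 7.6, 7.0 and 7.0 in PCA and at 7.6, 7.5, 7.4, 7.5 and 7.6 with LPS (0.38, SE 0.13), and its second probe set gave 0.36. Il6st, the shared receptor gp130, was at 0.24 (SE 0.09). Il1rn, the interleukin 1 receptor antagonist, was at 3.7 to 4.0 in PCA and at 4.0, 5.1, 3.7, 4.0 and 4.6 with LPS (0.40, SE 0.17). Without arrays 2 and 5 Il13ra1 was at 0.36 and Il1rn at 0.02, and the median of cytokines and their receptors was 0.09. The list of NF-kB pathway and feedback genes had 6 of 13 above 0, a median of -0.02 and none at an unadjusted p under 0.05, with Nfkbia, the inhibitor that NF-kB induces, at 0.14 (SE 0.11). Among the enzymes of nitric oxide and prostaglandin synthesis, Nos2 was at 0.16 (SE 0.13) and Ptgs2 at 0.10 (SE 0.28).

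**Figure D4:**
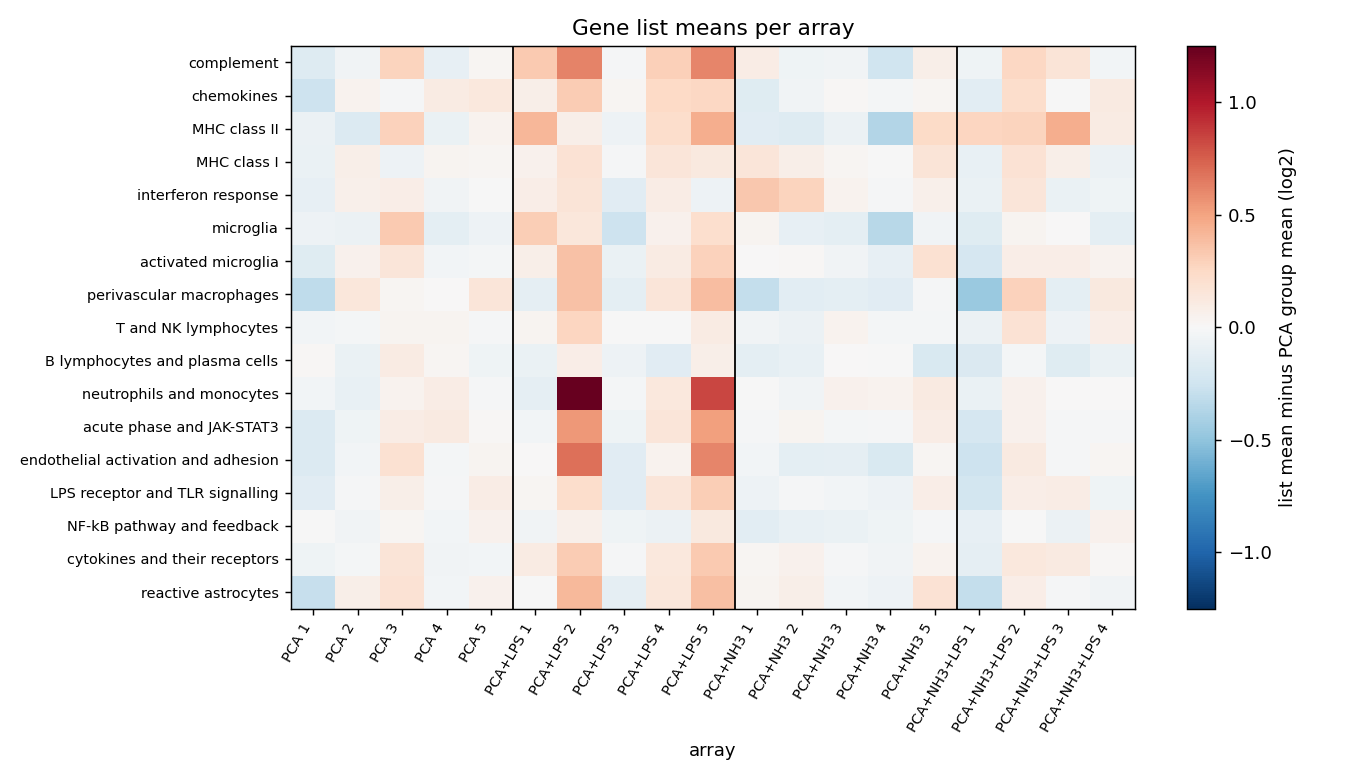
Mean of each gene list per array minus the mean of the 5 PCA arrays, on the log2 scale, as colour, with lists in rows and arrays in columns. The largest value is that of neutrophils and monocytes on PCA+LPS array 2, at 1.24, with array 5 at 0.84, and PCA+LPS array 3 lies between -0.26 and 0.03 for the 17 lists shown.

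Among the 15 genes of smallest p that were lower with LPS, Bach2 came first, and Bach2, Sipa1l2, Pde10a and Slc2a13 had the differences of largest size. The 15 had a median of -0.34, and for 6 of them every PCA+LPS array lay below every PCA array, against 0.127% of all genes. Both values follow from choosing the genes by p on these same arrays and are no result of their own. The 15 include the olfactory receptor genes Or2t48b and Or52s6, and 6 of the 15 had a PCA mean under 5. Bach2 was at 6.5, 6.0, 5.8, 6.4 and 6.3 in PCA and at 5.3, 5.5, 5.3, 5.6 and 5.9 with LPS. Array 5 alone overlapped with PCA, and the difference was -0.68 (SE 0.13, limma adjusted p = 0.154). Sipa1l2, a synaptic Rap GTPase-activating protein, was at 8.6, 8.1, 8.0, 8.5 and 8.7 in PCA and at 7.6, 7.6, 7.5, 7.9 and 7.9 with LPS, without overlap (-0.68, SE 0.16). Pde10a, a phosphodiesterase of cyclic nucleotides, was at 8.6, 8.1, 8.5, 8.6 and 8.9 in PCA and at 7.7, 7.6, 8.0, 8.0 and 8.1 with LPS (-0.66, SE 0.15). Adcy8, a calcium-stimulated adenylyl cyclase, was at -0.42 (SE 0.11), and Slc2a13, the proton myo-inositol cotransporter, was at -0.58 (SE 0.16) with 7.8 to 8.2 in PCA and 7.1 to 7.7 with LPS. The adjusted p was 0.454 for Sipa1l2 and Pde10a and 0.988 for the other 2. In Sham arrays Bach2 was at 5.72, Sipa1l2 at 7.86, Pde10a at 8.0, Adcy8 at 8.06 and Slc2a13 at 7.72, each between the PCA+LPS and the PCA mean. In PCA+NH3 arrays, from shunted rats without LPS, Bach2 was at 5.58, Sipa1l2 at 7.68, Pde10a at 8.06, Adcy8 at 7.98 and Slc2a13 at 7.62. The PCA mean was thus the highest of the 5 groups for each, and a low level was not particular to LPS. These genes were chosen on the PCA arrays, so their distance from Sham and PCA+NH3 is given as a level and nothing more is read from it.
The adjusted p of Bach2 moved with single arrays. Without PCA array 3 Bach2 was at -0.78 (limma adjusted p = 0.0234) and without PCA+LPS array 5 at -0.78 (limma adjusted p = 0.0406). Over all 35 alternatives its limma adjusted p ran from 0.0133 to 0.93.

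Lists of glia, neurons and stress responses gave these values. Of 14 measured astrocyte and Bergmann glia genes, 6 were above 0 with a median of 0.00, and Gfap, the intermediate filament of astrocytes, was at -0.14 (SE 0.26). The reactive astrocyte list had 18 of 25 above 0, against 45.8% of all genes, and a median of 0.14. It had 2 genes higher at an unadjusted p under 0.05, against 2.00% of all genes. Its mean was 0.40 and 0.37 above PCA on PCA+LPS arrays 2 and 5, its median was 0.04 without them, and it shares Lcn2, Cp, Timp1, Osmr and Serpina3n with the acute phase list. Purkinje cell genes had a median of 0.08 (13 of 16 above 0), granule cell genes 0.00, myelin genes -0.02 (0.105 without PCA array 3), and receptors for GABA and glutamate 0.02, with at most 1 member of each at an unadjusted p under 0.05. That member was Barhl1, a homeobox factor of the granule cell lineage, at 0.62 (SE 0.24), with PCA array 4 at 5.1 against 6.0 to 6.5 on the other PCA arrays, and 0.38 without that array. Brainstem genes were below 0 in 13 of 15, against 45.5% of all genes, with a median of -0.12. Among them Slc18a3, the vesicular acetylcholine transporter, was at -0.28 (SE 0.09). Without PCA array 3, the array high in that list, 9 of 15 were below 0 with a median of -0.035, and the mean over the list went from -0.107 to 0.022. Tsc22d3, the glucocorticoid-induced leucine zipper, was at 0.26 (SE 0.09), Gsdmd, the pore protein of pyroptosis, at 0.32 (SE 0.12) and Bcl2, the survival factor, at -0.42 (SE 0.19). Per2, a clock repressor, was at -0.08 (SE 0.19) and Hspa5, the endoplasmic reticulum chaperone, at -0.14 (SE 0.11).

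The same LPS schedule was also given on top of ammonia, and PCA+NH3+LPS minus PCA+NH3 shares no array with the comparison above. It asks whether the values recur in other samples, although all arrays were normalised together. No gene passed there either (0% higher and 0% lower, smallest adjusted p 0.217), and 313 genes were higher (1.73%) and 212 lower (1.17%) at an unadjusted limma p under 0.05. Of the 15 higher genes of smallest p without ammonia, 11 were higher with it, and 5 of them at an unadjusted p under 0.05: C3 at 1.78 (SE 0.34), Cxcl13 at 1.62 (SE 0.67), Adgre1 at 0.76 (SE 0.18), Cd4 at 0.70 (SE 0.21) and Cbr4, a carbonyl reductase, at 0.22 (SE 0.09). Of the 15 lower genes, 6 were lower and 9 higher with ammonia, and none was lower at an unadjusted p under 0.05. Bach2 was at 0.17 (SE 0.13), Sipa1l2 at -0.08 (SE 0.17) and Pde10a at -0.08 (SE 0.16).
For C3 the 4 PCA+NH3+LPS arrays were at 9.2, 9.2, 9.4 and 8.9 and the 5 PCA+NH3 arrays at 8.5, 7.2, 7.5, 6.4 and 7.4, again without overlap. Cxcl13 was at 5.5, 7.3, 7.7 and 6.7 with both agents and at 4.8, 5.6, 4.9, 4.6 and 6.0 with ammonia alone, so the groups overlapped and no array reached the 9.8 and 9.9 of PCA+LPS arrays 2 and 5.

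Some class II genes were higher with ammonia present as well, none past the threshold (limma adjusted p = 0.997). Cd74 had a difference of 1.41 (SE 0.34) and RT1-Ba one of 0.90 (SE 0.26). For RT1-Da the difference was 1.03 (SE 0.28), and for RT1-Db1, a beta chain, 0.45 (SE 0.13). These were 4 of 10 measured class II genes at an unadjusted p under 0.05, against 1.73% of all genes, and the list's median was 0.08. Mx2 and Gbp1 were lower there too, at -0.39 (SE 0.15) and -0.32 (SE 0.10). In contrast, the neutrophil and monocyte list had a median of -0.05 and 0 of 17 members higher at an unadjusted p under 0.05. Mmp8 was at -0.06 (SE 0.31), Csf3r at 0.02 (SE 0.25) and Lcn2 at -0.20 (SE 0.54). The complement list had a median of -0.02 with C3 as its 1 member at an unadjusted p under 0.05, and C1qa was at 0.07 (SE 0.23). The mean of 13 choroid plexus and ependyma genes was 1.61, 2.70 and 3.47 above the PCA mean on PCA+NH3 arrays 1, 2 and 5. On PCA+NH3+LPS array 3 it was 3.32 above. Without these arrays, an alternative that was not planned, no gene passed with ammonia and the smallest limma adjusted p was 0.783. At an unadjusted limma p under 0.05, 251 genes were then higher and 292 lower. The part of choroid plexus in the values of single genes was not tested.

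**Figure D5:**
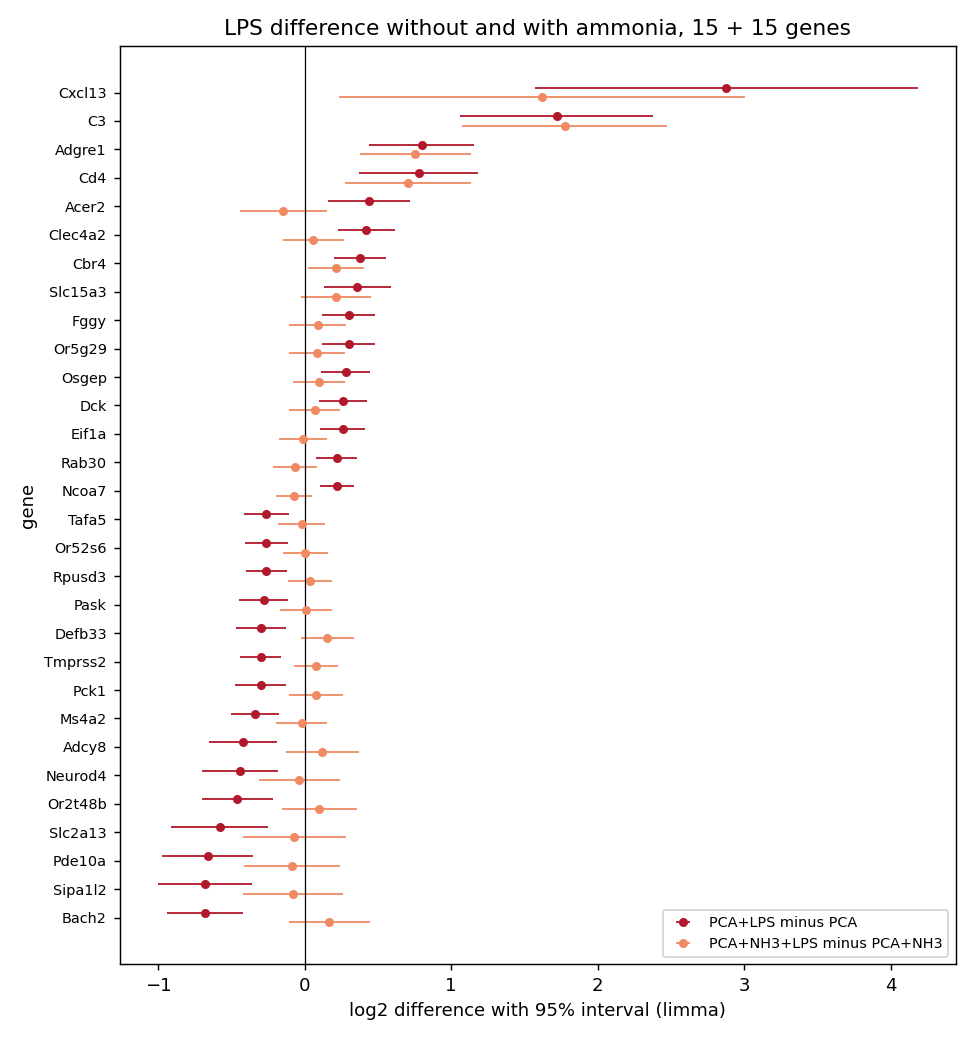
Log2 difference with its 95% limma interval for the 15 higher and 15 lower genes of smallest p in PCA+LPS minus PCA (dark red), beside PCA+NH3+LPS minus PCA+NH3 (orange). The dark red values chose the genes. C3, Adgre1, Cd4 and Cxcl13 lie above 0 in both, and the orange values of the 15 lower genes lie near 0, with a median of 0.01.

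The difference between the LPS effects with and without ammonia was tested as an interaction. No gene passed (0%, smallest adjusted p 0.997), and 675 genes had an unadjusted p under 0.05 (3.72%), of which 397 were higher and 278 lower with ammonia. The interaction for C3 was 0.06 (SE 0.47), with a 95% interval of -0.91 to 1.02. For Bach2 it was 0.85 (SE 0.18), and all 15 lower genes had an unadjusted p under 0.05 for it, but those genes were chosen on the PCA and PCA+LPS arrays that also enter this test. For Mmp8 it was -0.98 and for Cd74 0.73, with adjusted p of 0.997 for both. An LPS effect that differs with ammonia is therefore not shown for the neutrophil genes or Bach2. Fos, an immediate early gene of active neurons, was at 0.64 (SE 0.38) without ammonia and at -1.13 (SE 0.40) with it, also with an adjusted interaction p of 0.997.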

How the data were processed

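Expression was measured on 24 rat cerebellum arrays. The deposited values were log2 expression in steps of 0.1. The submitters' processing notes name RMA as the method, and the sources used here do not give its version, a build or a batch. The 2 deposited tables were identical (0 values differed). Of the probe sets, 19338 had 1 gene symbol, 1521 several and 8157 none. Symbols were updated through the RefSeq gene table (GRCr8): 14126 were current, 3388 updated and 1824 kept as given. The probe set of highest mean stood for each of the 836 genes with more than 1, leaving 18137 genes.

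All 5 groups entered 1 linear model in limma 3.58.1 (R 4.3.3), with 19 residual and 4.392 prior degrees of freedom and no low-value filter. The p-values were adjusted by Benjamini-Hochberg over all genes at a threshold of 0.05, and intervals are 95%. The procedure was tested on simulated data. Named were the 15 genes of smallest p in each direction, the 15 largest without overlap, genes of prior interest and, per list, up to 4 members by smallest p. The first 2 sets left out updated symbols that start with LOC, RGD, AABR, AC, Mir, Olr, Vom, Snor, Rn or Tas2r. Genes whose older symbol started that way stayed in, such as Bach2 and the olfactory receptor genes Or2t48b, Or52s6 and Or5g29. The members and lists were chosen with earlier results of these data known, and some genes are not reported here. The number of arrays limits the precision, and levels of different probe sets were not compared. Alternatives included a replicate block, array weights, median centring, cyclic loess, a filter on the mean, and leaving out arrays.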

Additional observations from a re-analysis of the deposited data

Results flagged for a closer look

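In groups of 5 arrays, 12 of 210 sets of values (5.71%) held 1 array whose gap to the nearest other exceeded 0.71 of the range, and chance gives about 1 in 20. PCA array 3 accounted for 5 of the 12. On it Cx3cr1 was at 9.4 against 8.3 to 8.4 on the other PCA arrays, C1qb at 7.9 against 7.3, and the potassium channel gene Kcna3 at 7.6 against 7.2 to 7.3. The mean of the microglia list was 0.33 on that array against -0.12 to -0.07, and that of cytokines and their receptors 0.16 against -0.05 to -0.02.

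The other PCA arrays apart were array 1 for Cp, at 6.1 against 7.2 to 7.6, and for Nfkbia, at 7.4 against 7.0 to 7.1. Array 2 was low for Lyn, at 6.8 against 7.1 to 7.2, and array 4 for Ncoa7, at 8.4 against 8.5, a gap of 1 step of the deposited values. Among PCA+LPS arrays, array 4 was apart for Ccl2, at 10.0 against 7.5 to 8.0. Array 1 was apart for Cxcl10, at 5.1 against 4.7 to 4.8, and for Gfap, at 10.3 against 9.2 to 9.4.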

How the results depend on the processing

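Over 35 alternatives, 33 of them planned and 24 leaving out 1 array, 76 of 88 genes were not counted as changing sign. The 76 include Cx3cr1 and Cd14, whose difference of 0.00 had no sign to change. Leaving out 1 array gave -0.09 to 0.215 for Cx3cr1 and -0.105 to 0.07 for Cd14. The count of genes past the threshold in PCA+LPS minus PCA, 0 as reported, was 1 with the replicate block and 2 with array weights, and ranged from 0 to 2 over leaving out 1 array. In PCA+NH3+LPS minus PCA+NH3 it was 1 with the replicate block and 2 with array weights, and also ranged from 0 to 2, while the interaction stayed at 0. The genes called without ammonia were C3 (1.72 and limma adjusted p = 0.012 with the block, 1.82 and 0.00952 with weights) and Bach2 (-0.75 and 0.0133 with weights). The labels do not say whether equal numbers mark paired arrays. Correlations of same-numbered PCA and PCA+LPS arrays ran from -0.153 to 0.225, over 0.1 in 2 of 5. Of the PCA+LPS arrays, 2 correlated best with their own number. So few pairs cannot decide whether the numbers pair arrays. Median centring turned the unadjusted split of 363 higher and 364 lower into 153 and 751, and a mean of at least 5 into 271 and 156 of 11879 genes.

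Without PCA+LPS arrays 2 and 5, chosen after seeing the data, signs reversed for Plac8 (-0.013), S100a9 (-0.053), Lcn2 (-0.17), Vcam1 (-0.047), Lbp (-0.04), Nfkbia (-0.007), Il1b (-0.013), Ptprc (-0.02), Aif1 (-0.11), Gfap (0.04) and Ptgs2 (-0.39). Leaving out 1 array gave -0.195 to 0.005 for P2ry12, -0.03 to 0.145 for Aif1, -0.335 to 0.045 for Gfap and -0.095 to 0.305 for Ptgs2. Under the filter on the mean, the medians of MHC class II (0.62) and of T and NK lymphocytes (0.12) moved, with fewer genes tested.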
